A study of Mus musculus with 17 samples.

Results

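The genes examined here were 7 that encode the complexes formed downstream of death receptors and the necroptosis machinery: Ripk1, Ripk3, Mlkl, Fadd, Casp8, Cflar and Cyld. They were chosen by name and matched through their Ensembl identifiers, and all 7 were found, each on a single line, among 31091 gene identifiers in the count table. Their mRNA was measured in conventional dendritic cells (cDCs) kept with medium of dying or control tumor cells, in 17 samples forming 6 groups: cDC1s and cDC2s, each with WT, BimS or RIPK3 medium. Every group had 3 samples, except cDC2s with RIPK3 medium, which had 2.

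All cDCs came from spleens of female C57BL/6JRj mice, bought at 8 weeks of age, that carried B16 tumors secreting FLT3L, a growth factor that expands cDCs, and at least 2 spleens were pooled per experiment. Splenic CD11c+ cells were kept for 6 h with medium collected from cultures of TC-1, a mouse lung epithelial tumor line, and cDC1s and cDC2s were then sorted. The culture protocol to which the study refers for this step also adds the cytokine GM-CSF, for survival of the CD11c+ cells. All tumor cultures had received the inducer cumate for 24 h. WT medium came from TC-1 cells without a switch. BimS medium came from TC-1-iBimS, a clonal subline in which cumate switches on the pro-apoptotic protein BimS, and held apoptotic debris. RIPK3 medium came from TC-1-iRIPK3, a clonal subline in which cumate switches on a self-oligomerizing form of mouse RIPK3, and held necroptotic debris. One of the genes examined, Ripk3, is therefore also the transgene of the cells whose debris was given. The labels number the replicates without saying what a number stands for, so p-values measure the spread between these samples alone.

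When a death receptor of the TNF family is engaged, the kinase RIPK1 and the adaptor FADD can recruit caspase-8. Active caspase-8 cleaves RIPK1 and RIPK3, and its catalytically inactive relative cFLIP, encoded by Cflar, limits and shapes that activity. Where caspase-8 is not active, RIPK1 and RIPK3 bind each other through a short RHIM (RIP homotypic interaction motif), RIPK3 phosphorylates MLKL, and MLKL breaches the plasma membrane. CYLD removes ubiquitin chains from RIPK1 and so favors the assembly of these complexes. In dendritic cells caspase-8 is also known to restrain RIPK3-dependent inflammatory signaling.

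The RHIM is the part shared by the only pair of kinases among these genes, and it lies in the endogenous mRNA as well as in a RIPK3 transgene. The coding stretches around it are printed 5′ to 3′ along the mRNA, read from GRCm39, with the codons of the motif core in capitals. In Ripk1 (ENSMUSG00000021408, chr13:34186141-34221130, plus strand) the core is codons 528 to 531 of 656, within the printed stretch at chr13:34214037-34214096. In Ripk3 (ENSMUSG00000022221, chr14:56022452-56026324, minus strand) it is codons 448 to 451 of 486, within the stretch at chr14:56022738-56022797.
Ripk1 RHIM coding stretch: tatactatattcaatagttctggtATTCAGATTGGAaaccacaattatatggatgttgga
Ripk3 RHIM coding stretch: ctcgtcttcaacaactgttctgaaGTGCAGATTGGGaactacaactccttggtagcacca
Deposited counts are summed over a gene, so reads of an endogenous Ripk3 mRNA and of a transgene mRNA carrying the same mouse coding sequence cannot be told apart in them.

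Between 16095159 and 21645289 reads per sample were counted on genes. Values are given as CPM, counts per 1000000 reads after TMM normalization, and error as SD over the samples of a group. The sorted cells carried their markers. A list of 8 cDC1 genes summed to 948 to 1090 CPM in cDC1s and to 52.9 to 66.2 CPM in cDC2s, and a list of 7 cDC2 genes to 287 to 374 CPM in cDC2s and 2.53 to 4.03 CPM in cDC1s. Of 14 genes of adherent tumor cells, 13 were in the table, and their sum was 4.99 to 8.65 CPM in cDC1s, 77.9 to 91.9 CPM in cDC2s with WT medium, 155 to 197 CPM with BimS and 152 to 169 CPM with RIPK3 medium. In cDC2s 10 of the 13 stayed under 1 CPM in every group. The gene that carried the difference was Thbs1 (thrombospondin-1), at 49.2, 144 and 138 CPM with the 3 media. Of the epithelial genes in the list, Cdh1 was at 32.7, 25.6 and 20.4 CPM in cDC2s with WT, BimS and RIPK3 medium and at most 0.339 CPM as a group mean in cDC1s. Epcam was at 0.957 to 1.20 CPM over the 6 groups, Krt18 had at most 26 reads in any sample and Krt8 at most 3. In bulk samples, less mRNA per cell and fewer cells that carry it cannot be told apart.

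To place the genes on 1 scale, CPM was divided by exon length in kilobases and averaged over all samples of a cell type. This length is the union of all annotated exons of a gene, not that of the transcript present, and the order of the genes rests on it. Before division Cflar stood above Casp8. Casp8 stood highest, with 59.1 CPM per kb in cDC1s and 71.6 in cDC2s, above 96.1% and 96.9% of 13467 protein-coding genes. Cflar (23.7 and 21.7 CPM per kb), Ripk1 (19.3 and 26.4), Cyld (14.5 and 15.6) and Ripk3 (10.6 and 13.3) formed a middle group. Fadd was lower, with 3.32 and 2.75 CPM per kb. Mlkl, whose product executes necroptosis, was far below the others, with 0.167 and 0.336 CPM per kb, which exceeded only 22.3% and 28.6% of protein-coding genes. Its level rests on 10 to 55 reads per sample, against 122 reads or more per sample for each of the other 6 genes.

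**Figure D1:**
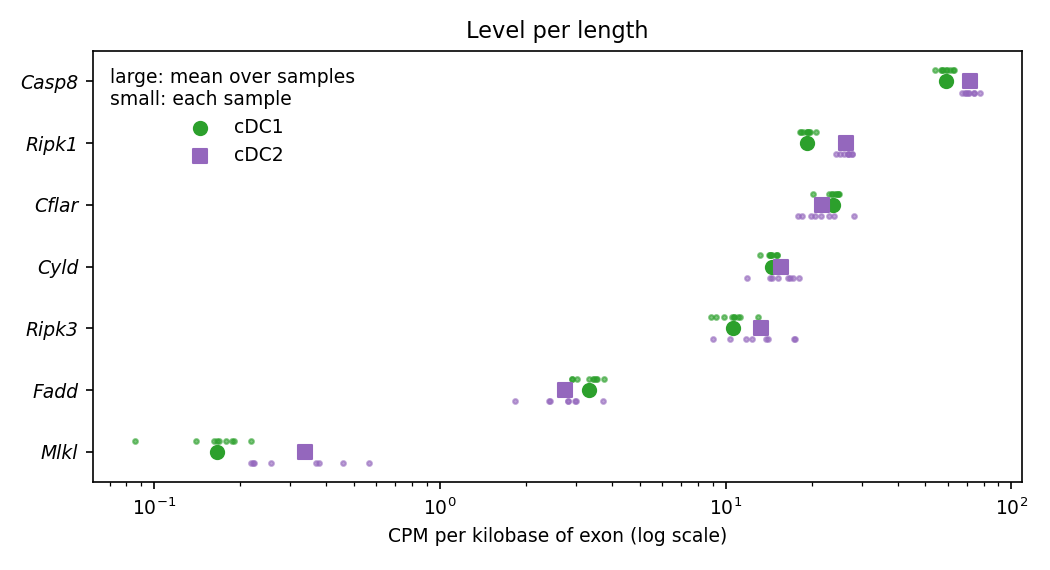
Level per length of the 7 genes in cDC1s (circles) and cDC2s (squares), in CPM per kilobase of exon on a log axis. Large symbols are means over all samples of a cell type and small symbols are single samples. Casp8 lies highest at 59.1 and 71.6 CPM per kb and Mlkl lowest at 0.167 and 0.336 CPM per kb.

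Ripk3, the kinase that activates MLKL, was higher with RIPK3 than with WT medium in both cell types. In cDC1s it was measured at 22.4, 26.6 and 23.5 CPM with WT medium (24.2 ± 2.15), at 25.1, 28.3 and 27.1 CPM with BimS medium (26.8 ± 1.65) and at 27.1, 27.9 and 32.9 CPM with RIPK3 medium (29.3 ± 3.16, n = 3 each). The RIPK3 samples all lay above the WT samples, and the highest of the 9 values was RIPK3 replicate 3. RIPK3 against WT gave a log2 fold change of 0.28 in edgeR's quasi-likelihood test (standard error, SE, 0.0816, Benjamini-Hochberg adjusted p = 0.0146), or 21.1% more. For BimS against WT it was 0.15 (SE 0.0818, adjusted p = 0.268), with groups that overlapped. In cDC2s Ripk3 was measured at 22.8, 26.2 and 31.2 CPM with WT medium (26.7 ± 4.25, n = 3), at 29.9, 34.9 and 43.8 CPM with BimS medium (36.2 ± 7.02, n = 3) and at 35.6 and 44.4 CPM with RIPK3 medium (39.99 ± 6.26, n = 2). Both RIPK3 samples lay above all WT samples, and with WT and BimS medium replicate 1 was the lowest and replicate 3 the highest. RIPK3 against WT gave 0.57 (SE 0.161, adjusted p = 0.0452), or 48.8% more, and BimS against WT gave 0.44 (SE 0.145, adjusted p = 0.1003).

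Replicates with the same number deviated together within a cell type, so the replicate number was also fitted as a block. Ripk3 in cDC2s was then higher with BimS than with WT medium, by 0.43 (adjusted p = 3.47e-09), and higher with RIPK3 than with BimS medium, by 0.28 (adjusted p = 0.0039). Without the block this last difference was 0.14 (SE 0.160, adjusted p = 0.862), and it ranged from -0.036 to 0.29 when a sample was left out. It was 0.025 (adjusted p = 0.951) with a covariate for the balance of long and short genes in each sample, defined below. With limma on log2(count + 1), the method stated for the study, the difference of Ripk3 between RIPK3 and WT medium had an adjusted p of 0.45 in cDC1s and 0.117 in cDC2s. Samples were not scaled to their read totals in that setting. Its median log2 fold change over all genes was -0.12 and -0.17 there, opposite in direction to the rise of Ripk3. The call also depended on single samples. In cDC1s the call was lost without WT replicate 1 (log2 fold change 0.23, adjusted p = 0.105), WT replicate 3 (0.26, 0.0638) or RIPK3 replicate 3 (0.18, 0.127). In cDC2s it was lost without WT replicate 1 (0.47, 0.105), WT replicate 2 (0.56, 0.126), BimS replicate 2 (0.58, 0.0617) or RIPK3 replicate 2 (0.41, 0.380).

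Since the iBimS and iRIPK3 lines each overexpress a mouse gene, the counterpart of Ripk3 is Bcl2l11, which encodes Bim and which cDCs themselves transcribe. With BimS medium Bcl2l11 was at 1346 ± 30.1 CPM in cDC1s, against 1319 ± 33.4 CPM with WT medium, which differed by 0.03 on the log2 scale (adjusted p = 0.803). It fell with RIPK3 medium to 1114 ± 64.1 CPM, by 0.24 on the log2 scale (adjusted p = 0.000111). In cDC2s it was at 257 ± 18.4, 289 ± 11.6 and 279 ± 7.65 CPM with WT, BimS and RIPK3 medium, and BimS against WT gave 0.17 (adjusted p = 0.272, and 0.000457 with the replicate block). Whether transgene mRNA in the debris contributed to Ripk3 was not tested. Values near this question are the tumor markers above, Bcl2l11, and Ripk3 with BimS medium, whose source line has no Ripk3 transgene. Those Ripk3 means were above WT (edgeR without the block, adjusted p = 0.268 in cDC1s and 0.1003 in cDC2s). With RIPK3 medium Ripk3 means went from 24.2 to 29.3 CPM in cDC1s and from 26.7 to 39.99 CPM in cDC2s. A rise of that many CPM would lie within the SD of Bcl2l11 with WT medium, so Bcl2l11 could not show it.

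The promoter of Ripk3, 250 bases before to 50 bases after the start of the canonical transcript, is shown here with that of Fadd because these were the members called between media without the replicate block. Both are read from GRCm39 on the minus strand, at chr14:56026275-56026574 and chr7:144136162-144136461, and capitals mark matches on either strand to the GC box GGGCGG, the binding motif of Sp1-type factors. One match was found for Ripk3 and 2 for Fadd, and 42.5% of 21770 promoters of protein-coding genes hold at least 1. Neither window holds the interferon-response core GAAANNGAAA (3.84% of promoters), the STAT site TTCNNNGAA (8.81%) or TATAAA (13.2%).
Ripk3 promoter: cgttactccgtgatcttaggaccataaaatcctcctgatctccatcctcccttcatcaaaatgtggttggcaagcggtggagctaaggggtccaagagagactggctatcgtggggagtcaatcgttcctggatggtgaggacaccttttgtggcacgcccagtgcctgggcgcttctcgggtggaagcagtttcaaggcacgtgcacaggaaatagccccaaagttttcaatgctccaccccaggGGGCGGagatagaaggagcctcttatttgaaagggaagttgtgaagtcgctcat
Fadd promoter: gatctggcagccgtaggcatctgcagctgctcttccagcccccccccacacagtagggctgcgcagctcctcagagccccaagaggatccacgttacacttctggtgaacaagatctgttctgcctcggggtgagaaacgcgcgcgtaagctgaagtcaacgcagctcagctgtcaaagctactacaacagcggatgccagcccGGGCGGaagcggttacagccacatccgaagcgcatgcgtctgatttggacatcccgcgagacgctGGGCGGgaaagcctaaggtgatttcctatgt

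Fadd (ENSMUSG00000031077, chr7:144131055-144136211, minus strand), the adaptor that links death receptors to caspase-8, moved the other way and was lower with RIPK3 medium in both cell types. In cDC1s it was at 13.8, 13.8 and 14.6 CPM with WT medium (14.1 ± 0.478), at 13.5, 13.0 and 13.6 CPM with BimS medium (13.4 ± 0.282) and at 11.4, 11.8 and 11.3 CPM with RIPK3 medium (11.5 ± 0.254, n = 3 each). The RIPK3 samples were below all others. RIPK3 against WT was -0.29 (SE 0.0929, adjusted p = 0.0243), so that its mean fell by 18.4%, and RIPK3 against BimS was -0.22 (SE 0.0937, adjusted p = 0.235). In cDC2s Fadd was at 11.6, 11.0 and 14.6 CPM with WT medium (12.4 ± 1.90, n = 3), at 11.7, 9.51 and 11.0 CPM with BimS medium (10.8 ± 1.14, n = 3) and at 9.44 and 7.15 CPM with RIPK3 medium (8.29 ± 1.62, n = 2). Both RIPK3 samples were again the lowest of their cell type. RIPK3 against WT was -0.59 (SE 0.165, adjusted p = 0.0305), and its mean fell by 33.8%. For BimS against WT the values were -0.08 in cDC1s (adjusted p = 0.707) and -0.21 in cDC2s (adjusted p = 0.480).

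With limma on log2(count + 1) Fadd was called in both cell types (adjusted p = 0.0236 and 0.00304). In that unscaled setting the median over all genes was itself negative (-0.12 and -0.17), in the direction of the fall of Fadd. The fall of Fadd in cDC1s was not called in the fit of all 6 groups (-0.29, adjusted p = 0.0954), nor without WT replicate 1 (-0.31, adjusted p = 0.0545), WT replicate 3 (-0.26, 0.120), RIPK3 replicate 1 (-0.29, 0.0644) or RIPK3 replicate 3 (-0.29, 0.0542). In cDC2s it was not called without WT replicate 3 (-0.47, 0.0757), RIPK3 replicate 1 (-0.80, 0.0507) or RIPK3 replicate 2 (-0.40, 0.416). Fadd shares 239 exonic bases with the antisense transcript Faddos, which had at most 2 reads in any sample. The antisense transcripts Gm72893 and Gm63800, which were not counted here, share 339 exonic bases with Fadd and 672 with Mlkl. Without a stated strand setting, their reads cannot be told apart from those of both genes.

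Ripk1, the kinase at the branch point of the pathway, varied little between media. In cDC1s it was at 213 ± 1.91, 220 ± 7.27 and 202 ± 2.49 CPM with WT, BimS and RIPK3 medium, and in cDC2s at 286 ± 8.98 and 301 ± 6.27 CPM with WT and BimS medium and at 298 and 266 CPM in the RIPK3 samples. In cDC1s the RIPK3 samples (199.9 to 205 CPM) lay below the WT samples (211 to 215 CPM) and the BimS samples (214 to 228 CPM). RIPK3 against BimS was -0.12 (SE 0.0468, adjusted p = 0.160), and this became a called fall with the replicate block (-0.12, adjusted p = 0.0468). Ripk1 shares 241 exonic bases with the antisense gene Serpinb6a, which was at 4.94 to 7.00 CPM as group means, with 72 to 146 reads per sample against 3560 or more for Ripk1.

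The ratio of Ripk1 to Ripk3 in CPM per kb of exon union was 2.04 ± 0.173 in cDC1s with WT medium, 1.89 ± 0.107 with BimS medium and 1.60 ± 0.149 with RIPK3 medium. The values with RIPK3 medium (1.43 to 1.72) did not overlap those with WT (1.84 to 2.17) or BimS medium (1.77 to 1.97). In cDC2s the ratio was 2.51 ± 0.470, 1.97 ± 0.403 and 1.65 ± 0.385, and RIPK3 (1.38 to 1.93) did not overlap WT (2.04 to 2.98).

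Mlkl (ENSMUSG00000012519, chr8:112036296-112065168, minus strand), the effector of necroptosis, had its highest values in cDC2s exposed to debris. In cDC2s it had 29, 22 and 24 reads with WT medium (1.49, 1.26 and 1.29 CPM), 36, 42 and 55 reads with BimS medium (2.19, 2.14 and 3.28 CPM) and 41 and 22 reads with RIPK3 medium (2.65 and 1.29 CPM). All BimS samples lay above all WT samples, while the RIPK3 samples fell on both sides. BimS against WT was 0.90 (SE 0.279, adjusted p = 0.0592), and 0.91 with the replicate block, where it was called (adjusted p = 0.00144). RIPK3 against WT was 0.52 (SE 0.325, adjusted p = 0.450). In cDC1s the means were 0.803 ± 0.264, 0.960 ± 0.135 and 1.13 ± 0.117 CPM with WT, BimS and RIPK3 medium, with RIPK3 samples above all WT samples. RIPK3 against WT was 0.49 (SE 0.312, adjusted p = 0.344), with 10 to 25 reads per cDC1 sample.

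Mlkl is known as an interferon-stimulated gene, and its promoter is shown for that reason. It was the only 1 of the 7 promoters with a match to GAAANNGAAA. The match lies at the far 5′ end, as its reverse complement within a run of pyrimidines, and is in capitals. The window is chr8:112064819-112065118 of GRCm39, minus strand.
Mlkl promoter: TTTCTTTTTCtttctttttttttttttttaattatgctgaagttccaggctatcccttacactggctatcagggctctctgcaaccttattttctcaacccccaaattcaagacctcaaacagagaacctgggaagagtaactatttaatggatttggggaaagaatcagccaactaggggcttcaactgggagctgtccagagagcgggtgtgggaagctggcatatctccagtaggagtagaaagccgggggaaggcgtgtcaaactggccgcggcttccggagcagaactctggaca
In cDC2s a list of 15 interferon-stimulated genes summed to 849 to 1008 CPM with WT medium, 471 to 600.1 CPM with BimS and 343 to 415 CPM with RIPK3 medium. Of these 15 genes 13 fell with BimS and 13 with RIPK3 medium, where 7.01% and 7.21% of all genes were called. In cDC1s 2 and 12 of the 15 fell, where 13.2% and 16.5% of all genes were called. No Mlkl value in cDC2s with debris, at 22 to 55 reads, lay below the WT range. A link between Mlkl and these genes was not tested.

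Casp8 (ENSMUSG00000026029, chr1:58834375-58886665) and Cflar (ENSMUSG00000026031, chr1:58750321-58798047), the protease and its regulator, are neighbors on the plus strand of chromosome 1, with 36327 bases and no protein-coding gene between them. Casp8 was at 180 ± 6.79, 190.2 ± 5.51 and 175 ± 7.71 CPM in cDC1s and at 212 ± 4.78, 232 ± 6.29 and 217 ± 4.29 CPM in cDC2s, with WT, BimS and RIPK3 medium. The BimS samples in cDC2s (228 to 239 CPM) were above the WT (208 to 217 CPM) and RIPK3 samples (214 and 219.8 CPM). BimS against WT was 0.13 (SE 0.0744, adjusted p = 0.410), and was called with the replicate block (0.13, adjusted p = 0.018).

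Cflar in cDC2s was at 405, 346 and 288 CPM with WT medium, at 333, 313 and 259 CPM with BimS medium and at 297 and 267 CPM with RIPK3 medium. The groups overlapped, and replicate 1 was the highest with each medium. Within a replicate number every debris sample was below its WT sample. BimS against WT was -0.20 (SE 0.122, adjusted p = 0.439) and RIPK3 against WT -0.31 (SE 0.137, adjusted p = 0.253). With the replicate block, Cflar fell by 0.20 with BimS (adjusted p = 2.53e-05) and by 0.41 with RIPK3 medium (adjusted p = 7.15e-16), and by 0.22 between RIPK3 and BimS medium (adjusted p = 0.000147). This last difference was not called without the block, and was -0.029 to -0.21 when a sample was left out. It was 0.020 (adjusted p = 0.927) with the covariate for the balance of long and short genes in each sample. The values that follow are without block or covariate. In cDC1s Cflar was at 349 ± 8.85, 351 ± 9.79 and 328 ± 33.3 CPM, and RIPK3 against WT was -0.09 (SE 0.0544, adjusted p = 0.320). The ratio of Cflar to Casp8 in CPM per kb of exon union was, in cDC2s, 0.348 ± 0.0636 with WT, 0.277 ± 0.0338 with BimS and 0.278 ± 0.0264 with RIPK3 medium, and in cDC1s 0.413 ± 0.00700, 0.393 ± 0.00315 and 0.398 ± 0.0232.

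Cyld (ENSMUSG00000036712, chr8:89423468-89478574, plus strand), the deubiquitinase, stayed at 196 ± 7.40, 198 ± 5.58 and 191 ± 12.4 CPM in cDC1s. In cDC2s it was at 205, 193 and 159 CPM with WT medium, at 233, 243 and 196 CPM with BimS medium and at 223 and 227 CPM with RIPK3 medium. Both RIPK3 samples were above all WT samples, and each BimS sample was above the WT sample of its number. BimS against WT was 0.27 (SE 0.0994, adjusted p = 0.127) and RIPK3 against WT 0.27 (SE 0.111, adjusted p = 0.188). With the replicate block Cyld rose with both, by 0.27 (adjusted p = 9.08e-09) and 0.17 (adjusted p = 0.00479).

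**Figure D2:**
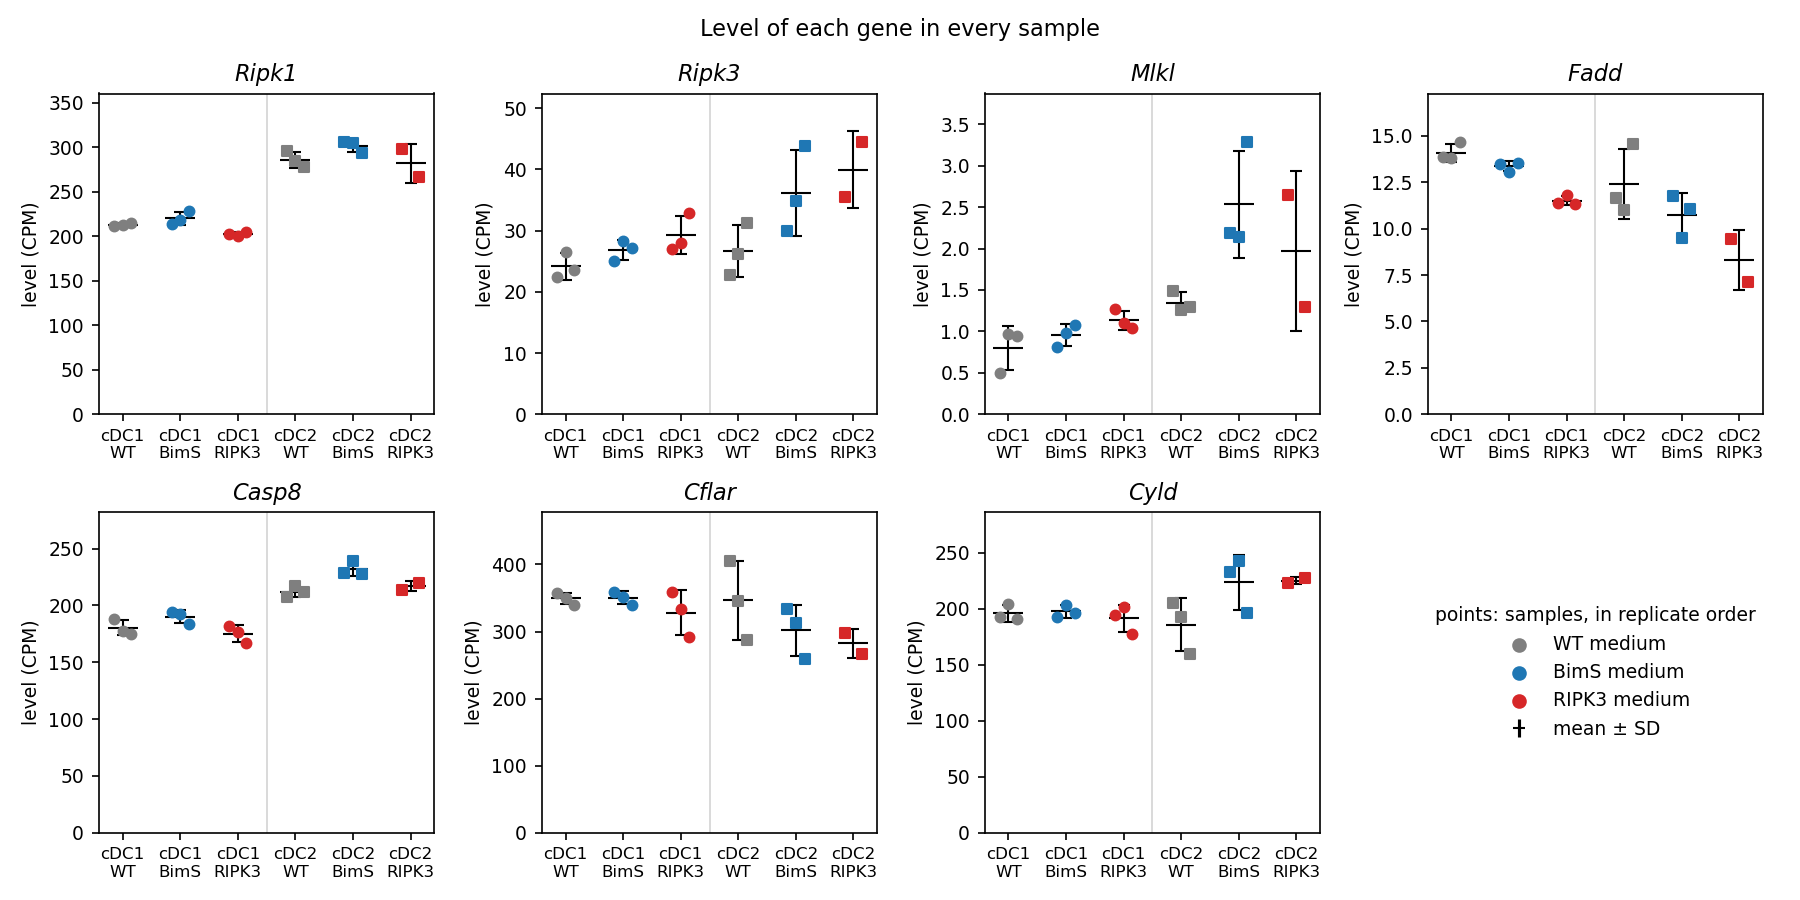
Level of each gene in CPM in every sample, by group. Circles are cDC1 samples, squares are cDC2 samples, colors are the media, points within a group are in replicate order, and black lines are mean ± SD (n = 3, and n = 2 for cDC2s with RIPK3 medium). Ripk3 is highest and Fadd lowest with RIPK3 medium in both cell types, and Mlkl stays at or below 3.28 CPM in every sample.

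Counted over the 7 genes, all of which were tested in each comparison, few were called at an adjusted p under 0.05 without the replicate block. In cDC1s none was called for BimS against WT, where 13.2% of all tested genes were called, and none was called by DESeq2 or limma. None had an unadjusted p under 0.05 with edgeR, where 4474 of 19513 genes tested did. For RIPK3 against WT 2 of 7 were called, Ripk3 up and Fadd down, where 16.5% of all genes were called. For RIPK3 against BimS none was called with edgeR, DESeq2 or limma, and 4.15% of all genes were called. An unadjusted p under 0.05 was found there for 3 of the 7, and for 3030 of 19513 genes tested. In cDC2s none was called for BimS against WT, against a background of 7.01%. There 3 of the 7 had an unadjusted p under 0.05, as did 3506 of 19239 genes tested. DESeq2 called 1 there, Ripk3, and limma none. For RIPK3 against WT 2 were called, again Ripk3 up and Fadd down, against a background of 7.21%. For RIPK3 against BimS none was called by edgeR, DESeq2 or limma, and the background was 0.379%. There 1 of the 7 had an unadjusted p under 0.05, as did 1653 of 19239 genes tested. The comparisons with WT share the WT samples of a cell type, so they are not independent of each other.

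With the replicate block the counts in cDC1s were 0 of 7 for BimS and 2 of 7 for RIPK3, each against WT, and 1 of 7 between the debris types, where 17.9%, 21% and 8.87% of all genes were called. In cDC2s they were 5, 4 and 2 of 7, against 21.3%, 21.4% and 14.3% of all genes. The 5 genes with BimS medium were Ripk3, Mlkl, Casp8 and Cyld, which rose, and Cflar, which fell. The 4 with RIPK3 medium were Ripk3 and Cyld, which rose, and Fadd and Cflar, which fell. These fits left 4 and 3 residual degrees of freedom in cDC1s and cDC2s, so their p-values lean on the spread shared across genes.

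The groups did not overlap for 1, 4 and 3 of the 7 genes in the 3 cDC1 comparisons, where 29.5%, 29.9% and 19.2% of all genes did not overlap, and for 2, 3 and 2 of the 7 in cDC2s, where the shares were 23%, 34.1% and 26.8%. The median log2 fold change of the 7 genes against WT was 0.05 with BimS and -0.04 with RIPK3 medium in cDC1s, and 0.13 and 0.02 in cDC2s, beside medians over all genes of 0.0017, -0.0056, -0.019 and -0.022.

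**Figure D3:**
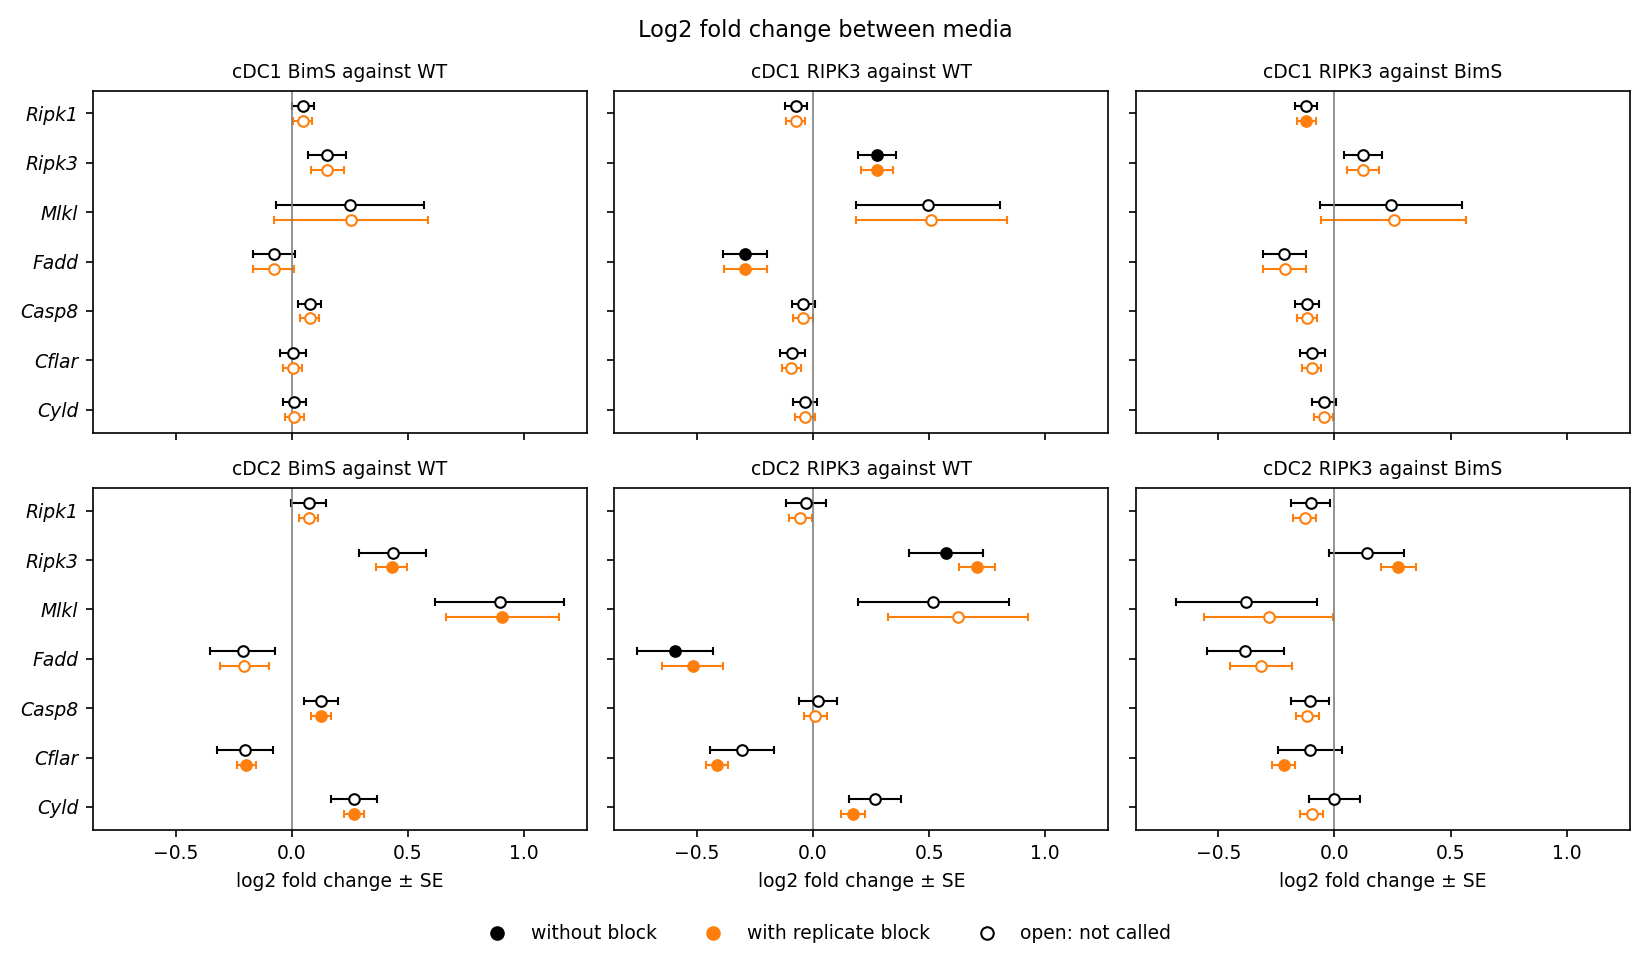
Log2 fold change (points) and SE (bars) of the 7 genes in the 6 comparisons between media, without (black) and with (orange) the replicate block. Filled points passed an adjusted p of 0.05. Without the block only Ripk3 (0.28 in cDC1s, 0.57 in cDC2s) and Fadd (-0.29, -0.59) are filled, both for RIPK3 against WT.

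The cell types were compared in a fit of all 17 samples with the medium as a term. There 5 of the 7 genes differed between cDC1s and cDC2s, beside 59.8% of all genes. Mlkl was lower in cDC1s by a log2 difference of -1.003 (SE 0.178, adjusted p = 1.18e-05), Ripk1 by -0.45 (SE 0.0348, adjusted p = 9.9e-13), Ripk3 by -0.34 (SE 0.0823, adjusted p = 0.00116) and Casp8 by -0.27 (SE 0.0352, adjusted p = 5.38e-08). Fadd was higher in cDC1s, by 0.31 (SE 0.0714, adjusted p = 0.000428). Cflar (0.14, adjusted p = 0.058) and Cyld (-0.10, adjusted p = 0.105) were not called. Across 8 alternative settings Cflar was called in 5, with adjusted p from 0.00042 to 0.941, and Cyld in 0. Ripk1 was called in all 8, Mlkl, Casp8 and Fadd in 7, and Ripk3 in 6. Casp8 (adjusted p up to 0.27) and Ripk3 were not called with limma on log2(count + 1). With WT medium alone only Ripk1 (-0.43, adjusted p = 4.5e-07) and Casp8 (-0.23, adjusted p = 0.00139) were called. There Ripk3 differed by -0.15 (adjusted p = 0.409), Mlkl by -0.74 (adjusted p = 0.0523) and Fadd by 0.18 (adjusted p = 0.193).

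For Ripk1, Casp8 and Mlkl all cDC2 groups were above all cDC1 groups, from 301 down to 202 CPM, 232 to 175 CPM and 2.53 to 0.803 CPM. Ripk3 ran from cDC2s with RIPK3 medium (39.99 CPM) over cDC2s with BimS, cDC1s with RIPK3, cDC1s with BimS and cDC2s with WT to cDC1s with WT medium (24.2 CPM). Fadd ran nearly in reverse, from cDC1s with WT (14.1 CPM) over cDC1s with BimS, cDC2s with WT, cDC1s with RIPK3 and cDC2s with BimS to cDC2s with RIPK3 medium (8.29 CPM). For Cflar and Cyld the highest group mean was 1.24 and 1.21 times the lowest, and the values of neighboring groups in that order overlapped or were not called apart without the block.

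Whether the response to debris differed between cDC1s and cDC2s was tested as an interaction. No gene of the 7 was called for BimS against WT or for RIPK3 against WT, where 0.87% and 1.14% of all genes were called. DESeq2 and limma also called none. Only Cyld had an unadjusted p under 0.05 with edgeR, where 1623 and 1635 of 19082 genes tested did. Its interaction, cDC1 response minus cDC2 response, was -0.26 (SE 0.114, adjusted p = 0.508) for BimS and -0.31 (SE 0.120, adjusted p = 0.358) for RIPK3. For Ripk3 the values were -0.28 (SE 0.188) and -0.31 (SE 0.198), and for Fadd 0.13 (SE 0.161) and 0.29 (SE 0.178), so a larger response in cDC2s was not shown for them.

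Across samples Ripk3 and Cflar moved in opposite directions. After the mean of each cell type was subtracted from log2 CPM, their Pearson correlation over the 17 samples was -0.898, the strongest of the 21 pairs among the 7 genes, followed by Ripk3 and Fadd with -0.601. These points share media and replicate numbers, so the values are descriptive. The extremes were cDC2 WT replicate 1, with the lowest Ripk3 and the highest Cflar, and cDC2 RIPK3 replicate 2 and BimS replicate 3, with the highest Ripk3. Measured the same way over the 7783 genes with a mean log2 CPM of 3 or more, the genes most like Ripk3 were Atp5if1 (r = 0.917), Cltb (0.916) and Noc2l (0.916), and those most like Fadd were Apobec3 (0.916), Naxd (0.913) and Aco1 (0.903).

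**Figure D4:**
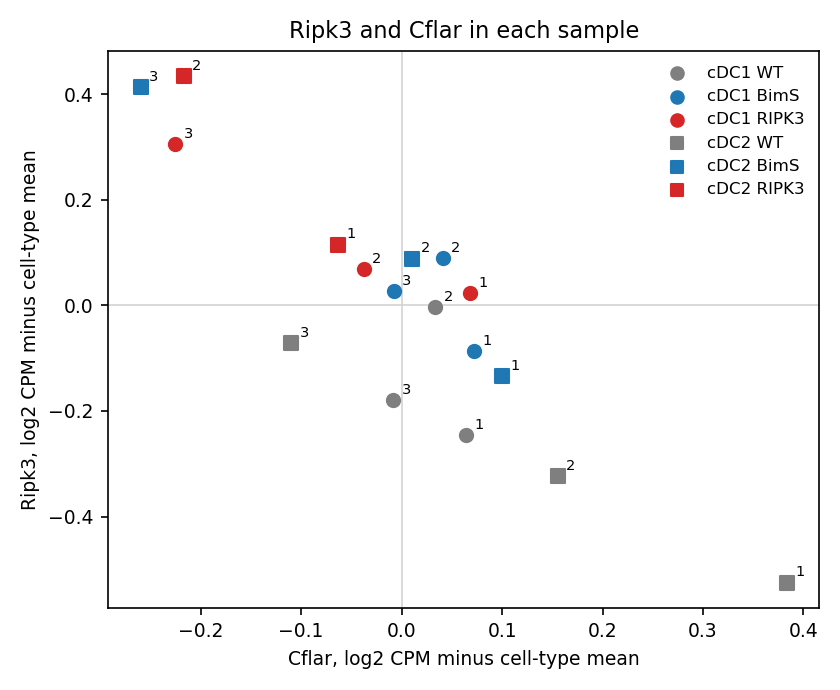
Ripk3 against Cflar in the 17 samples, each as log2 CPM minus the mean of its cell type. Circles are cDC1s, squares are cDC2s, colors are the media and numbers are replicates. The points run from cDC2 WT replicate 1 at the lower right to cDC2 RIPK3 replicate 2 and BimS replicate 3 at the upper left (r = -0.898).

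The annotated exons of Cflar (14458 bases), Cyld (13473) and Ripk1 (10993) are long in sum and those of Ripk3 (2531) short, so the balance of long and short genes was measured in each sample as the mean centered log2 CPM of the longest 25% of protein-coding genes minus that of the shortest 25%. It ranged from -0.15 to 0.067 in cDC1s, with RIPK3 replicate 3 lowest and the other 8 samples between -0.032 and 0.067, and from -0.25 in WT replicate 3 to 0.15 in WT replicate 1 in cDC2s. Over the 17 samples it correlated with Cyld (r = 0.763), Cflar (0.701), Ripk1 (0.505), Casp8 (0.354), Mlkl (0.134), Fadd (-0.119) and Ripk3 (-0.419). Casp8, with 3081 exonic bases, is short but had a positive value. With this measure as a covariate, an analysis added after the data were seen, the difference of Ripk3 for RIPK3 against WT was 0.25 in cDC1s (adjusted p = 0.0192) and 0.58 in cDC2s (adjusted p = 8.93e-07), and that of Fadd was -0.29 (adjusted p = 0.0237) and -0.59 (adjusted p = 0.00103). Its part in the differences between replicates was not tested.

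With the same covariate 4 of the 7 genes were called in cDC2s for BimS against WT, where 15.1% of all genes were called. Ripk3 rose by 0.56 (adjusted p = 8.09e-07), Mlkl by 0.94 (adjusted p = 0.0108) and Cyld by 0.18 (adjusted p = 0.00239), and Cflar fell by 0.31 (adjusted p = 9.75e-08). For RIPK3 against WT Cflar fell by 0.29 (adjusted p = 2.2e-06) and Cyld rose by 0.28 (adjusted p = 9.82e-06), beside Ripk3 and Fadd, where 16.5% of all genes were called.

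Around these complexes lies a wider set of 49 genes, listed by role, all of which were tested. In cDC1s 9 rose and 4 fell with BimS medium, and 9 rose and 5 fell with RIPK3 medium, where 13.2% and 16.5% of all tested genes were called. With the replicate block 15 and 22 of the 49 were called, against 17.9% and 21% of all genes. In cDC2s 3 rose and 1 fell with BimS medium, and 6 rose and 1 fell with RIPK3 medium, where 7.01% and 7.21% of all genes were called. With the block 15 and 18 were called, against 21.3% and 21.4%. Between RIPK3 and BimS medium 2 rose and 3 fell in cDC1s (4.15% of all genes called), and 9 were called with the block (8.87% of all genes). In cDC2s none was called there (0.379% of all genes), and 12 were with the replicate block (14.3% of all genes). The median log2 fold change of the 49 against WT was 0.026 with BimS and 0.0071 with RIPK3 medium in cDC1s, and -0.016 and -0.051 in cDC2s.

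Among the 10 ligands and receptors 3 rose in cDC1s with each debris type, all of them death receptors, where 13.2% and 16.5% of all genes were called. Tnfrsf21, which encodes death receptor 6, was at 3.32 ± 0.0887 CPM with WT, 6.59 ± 1.23 CPM with BimS and 8.70 ± 0.543 CPM with RIPK3 medium, a difference from WT of 0.99 (SE 0.150, adjusted p = 5e-06) and 1.39 (SE 0.146, adjusted p = 2.07e-09). Tnfrsf10b, the mouse TRAIL receptor, differed from WT by 0.70 (adjusted p = 0.00468) and 1.04 (adjusted p = 2.02e-05) in cDC1s. In cDC2s it was at 2.28 ± 0.338, 1.43 ± 0.291 and 2.16 ± 0.150 CPM, BimS against WT was -0.68 (adjusted p = 0.109, and called with the replicate block, 0.0291), and its interaction for BimS against WT was 1.39 (adjusted p = 0.0196). Tnfrsf1a, the main TNF receptor for death signaling, was higher with RIPK3 than with WT medium by 0.35 in cDC1s (adjusted p = 3.41e-06) and by 0.68 in cDC2s (adjusted p = 0.000505). With BimS medium it rose by 0.24 in cDC1s (adjusted p = 0.00134) and differed from WT by 0.29 in cDC2s (adjusted p = 0.115, and called with the replicate block, 2.77e-07). Between RIPK3 and BimS medium it differed by 0.39 in cDC2s (adjusted p = 0.210, and called with the block at 0.43, 2.12e-11).

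Of 6 adaptors and ubiquitin ligases 2 fell in cDC1s with BimS medium and 2 others with RIPK3 medium, where 13.2% and 16.5% of all genes were called. None was called in cDC2s without the block. With it 2 were called for BimS and 4 for RIPK3 against WT, against 21.3% and 21.4% of all genes. Birc2, which encodes the ligase cIAP1, fell by 0.16 with BimS medium (adjusted p = 0.0397), and with RIPK3 medium differed from WT by -0.09 (adjusted p = 0.275). Xiap, a caspase inhibitor, fell by 0.22 with RIPK3 medium (adjusted p = 0.00271) and by 0.21 between RIPK3 and BimS medium (adjusted p = 0.0133). With BimS medium it differed from WT by -0.0042 (adjusted p = 0.992). Tnfaip3, which encodes the ubiquitin editor A20, fell in cDC1s by 0.21 with BimS medium (adjusted p = 0.00861) and by 0.26 with RIPK3 medium (adjusted p = 0.000811). It is 1 of 6 genes of the linear ubiquitin complex and deubiquitinases. In cDC2s none of these was called without the block, and 2 were with it for RIPK3 against WT, against 21.4% of all genes.

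Bid, which encodes the caspase-8 substrate that carries the signal to mitochondria, fell in cDC1s by 0.21 with RIPK3 against WT medium (adjusted p = 0.027) and by 0.26 between RIPK3 and BimS medium (adjusted p = 0.0138).

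Among 10 genes for kinases that act on RIPK1 and their partners, Tbk1, whose product phosphorylates RIPK1, rose in cDC1s by 0.44 and 0.43 and in cDC2s by 0.44 and 0.35 with BimS and RIPK3 medium (adjusted p = 6.1e-08, 7.33e-08, 0.00232 and 0.0261). Chuk, which encodes IKKα, fell by 0.20 in cDC1s with BimS medium (adjusted p = 0.00351), and with RIPK3 medium differed from WT by -0.12 (adjusted p = 0.0931, and called with the replicate block, 0.0295). Ikbkb, which encodes IKKβ, fell in cDC1s by 0.18 between RIPK3 and BimS medium (adjusted p = 0.0205). Ikbkg, which encodes the IKK scaffold NEMO, rose from 111 ± 6.85 to 274 ± 19.3 and 229.9 ± 14.8 CPM in cDC2s, by 1.30 and 1.04, and by 0.47 and 0.39 in cDC1s. Its interaction was -0.84 for BimS (adjusted p = 3.1e-06) and -0.66 for RIPK3 (adjusted p = 0.000193). Ikbkg shares 526 exonic bases with G6pdx on the opposite strand, which encodes an enzyme of the pentose phosphate pathway and itself rose by 1.04 and 1.03 in cDC1s and 0.59 and 0.50 in cDC2s. Since the strand setting is not stated, the reads of these genes cannot be told apart where they overlap.

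Of 4 RHIM adaptors and their sensors, Zbp1, an interferon-stimulated nucleic acid sensor that can activate RIPK3, fell in cDC2s from 21.5 ± 2.84 to 11.8 ± 2.25 CPM with BimS and 7.15 ± 0.585 CPM with RIPK3 medium, by 0.87 (adjusted p = 0.000296) and 1.60 (adjusted p = 2.08e-06). In cDC1s the values were 16.5 ± 3.77, 10.9 ± 2.57 and 8.23 ± 2.74 CPM (adjusted p = 0.283 and 0.0725 against WT, and called with the replicate block, 2.49e-08 and 2.21e-17). Tlr3, the endosomal sensor of double-stranded RNA, rose in cDC1s by 0.61 with BimS medium (adjusted p = 0.0273). Its difference between RIPK3 and WT medium was 0.53 (adjusted p = 0.0629, and called with the replicate block, 0.0189), and between RIPK3 and BimS medium -0.09 (adjusted p = 0.903). Among 10 regulators of MLKL and RIPK3, the chaperone gene Hsp90aa1 rose in cDC1s by 0.18 and 0.39 (adjusted p = 0.00516 and 2.29e-08), and by 0.21 between RIPK3 and BimS medium (adjusted p = 0.0037). In cDC2s it rose by 0.44 with RIPK3 medium (adjusted p = 0.00365), and BimS against WT was 0.24 (adjusted p = 0.105, and called with the replicate block, 3.83e-08).

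**Figure D5:**
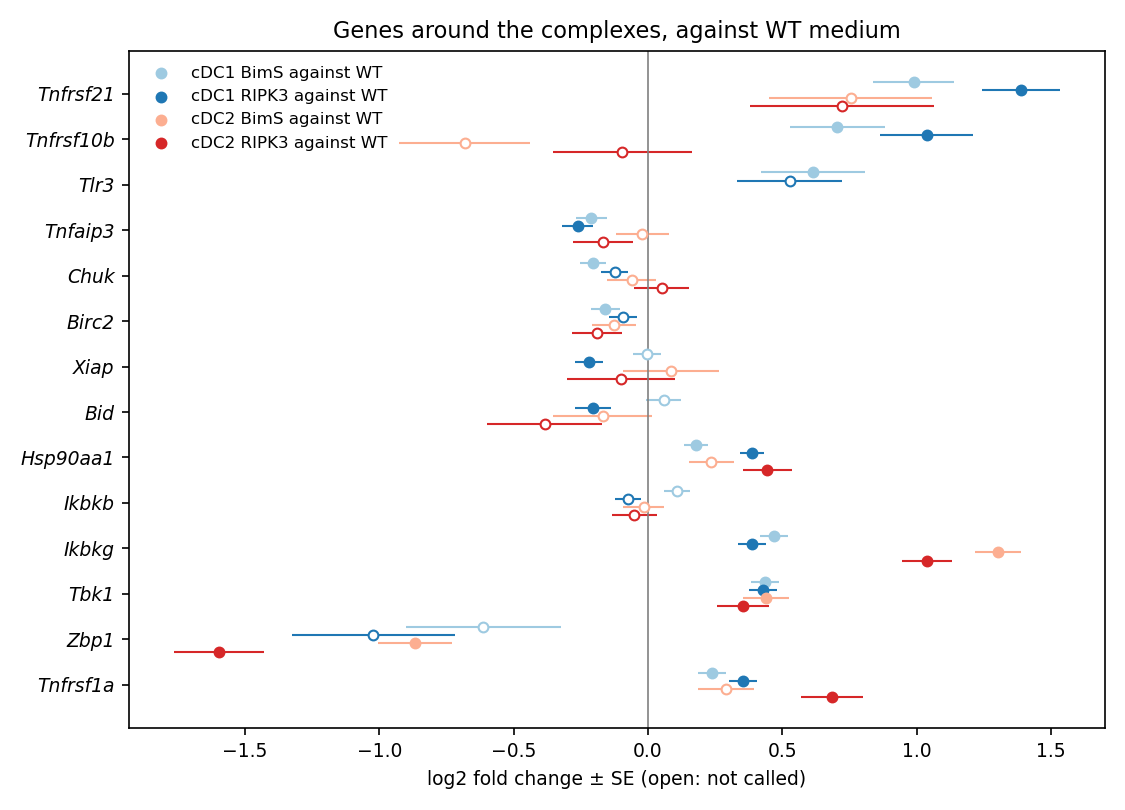
Log2 fold change against WT medium (points, bars are SE) of the 14 genes named from the wider list, in cDC1s (blue) and cDC2s (red and pink). Filled points passed an adjusted p of 0.05, and Tlr3 in cDC2s, with at most 6 reads per sample, is left out. Ikbkg and Tbk1 are to the right of 0 with both debris types in both cell types, and Zbp1 is to the left.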

How the data were processed

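mRNA of sorted splenic cDC1s and cDC2s was sequenced as paired ends in 17 samples. The authors trimmed reads with SeqPurge, aligned them with STAR 2.7.10a to GRCm39 and deposited raw counts per Ensembl gene. The strand setting is not given in the sources used here. The deposited log2 values are these counts scaled to a common total by the authors, and were used only as an alternative. The 148 lines without a gene identifier (0.0258 to 0.0366% of counts) were left out. Symbols came from GENCODE M39. Sequences and coordinates came from the GRCm39 reference genome.

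Genes with a nonzero count in at least 50% of the samples of a fit were tested with edgeR 4.0.16 (quasi-likelihood, robust, TMM) in R 4.3.3, separately in cDC1s and cDC2s, with Benjamini-Hochberg adjustment over all genes tested and a threshold of 0.05. Cell types were compared in 1 fit of all samples with the medium as a term, and interactions in a fit of the 6 groups. Scripts were tested on simulated data. Alternatives were DESeq2 1.42.0, limma 3.58.1, other filters and scalings, the replicate block and leaving out each sample. A covariate for the balance of long and short genes by exon length, with 1 value per sample (the gene length index), was added after the data were seen. No replicates agreed within sampling noise. Within cell types all 16 pairs of samples with the same replicate number deviated together (correlation over 0.1), against 4 of 32 pairs with different numbers. Between cell types 19 of 24 did, against 5 of 48 with different numbers. Since not every pair passed there and the labels name no shared source, the block is given for those fits as an alternative. Within cell types, where every pair passed, results are given both without and with the block.

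The 7 genes were reported in every comparison. From the wider list, up to 3 called genes with the largest rises and falls per comparison and non-overlapping groups were named, with a mean log2 CPM of at least 1. Members and lists were chosen with earlier results of these data known. One gene that the rule names is not reported here.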

Additional observations from a re-analysis of the deposited data

How the results depend on the processing

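Of the values compared with an alternative, 1128 kept their direction and their side of the threshold, 46 passed it only under the alternative, 25 no longer passed it and 46 changed sign. The number of the 7 genes called for RIPK3 against WT in cDC1s (2 as reported) was 1 with limma on log2(count + 1) (14.1% of all genes called, against 16.5% as reported), 3 (Ripk1, Fadd and Cflar, all lower) with limma on the deposited values (19.5%), 0 in the six-group fit (12.2%), and 0 to 2 when a sample was left out. For BimS against WT in cDC2s (0 as reported) it was 1 with DESeq2 (6.88% of all genes, against 7.01% as reported), 3 with no filter (6.52%), 3 in the six-group fit (11.2%), 4 with the gene length index as covariate (15.1%), and 0 to 1 when a sample was left out. For RIPK3 against WT in cDC2s (2 as reported) it was 1 with limma on the deposited values (8.44% of all genes, against 7.21% as reported), 3 with no filter (6.45%), 3 in the six-group fit (11%), 4 with the gene length index (16.5%), and 0 to 2 when a sample was left out. Between cDC1s and cDC2s (5 as reported) it was 2 with WT medium alone (46.2% of all genes, against 59.8% as reported), 4 with limma on log2(count + 1) (58.5%), and 6 with filterByExpr (74.6%), no filter (37.3%) or limma on the deposited values (60.7%). With the replicate block the paired counts were 1 for RIPK3 against BimS in cDC1s (8.87% of all genes). In cDC2s they were 5 for BimS (21.3%) and 4 for RIPK3 (21.4%) against WT and 2 between the debris types (14.3%). With that block they were 6 between the cell types (60.7%) and 0 for each interaction. The causes were not tested.

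The calls of Ripk3 for RIPK3 against WT were lost with limma on log2(count + 1) or on the deposited values in both cell types and, in cDC1s, in the six-group fit. That of Fadd was lost among these only in cDC1s, in the six-group fit. With limma on log2(count + 1) the median of all genes shifted by -0.12 (cDC1s) and -0.17 (cDC2s) for RIPK3 against WT, so values near zero changed sign there. No value that changed sign was called under the alternative.

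With limma on deposited values Ripk1 differed between BimS and WT medium by -0.020 in cDC1s and by -0.023 in cDC2s. Its interaction was 0.0076 for BimS and 0.012 for RIPK3 with limma on log2(count + 1), and 0.0029 for BimS with deposited values. The Mlkl interaction for RIPK3 was 0.14 and 0.091 with these methods. Casp8 for RIPK3 against WT in cDC2s was -0.15 and -0.081. For BimS against WT in cDC1s Cflar was -0.031 and -0.062, and Cyld -0.024 and -0.055. With the gene length index Cflar was -0.0050 for BimS against WT in cDC1s and 0.020 for RIPK3 against BimS in cDC2s, and Cyld was 0.00098 for RIPK3 against WT in cDC1s. Cyld for RIPK3 against BimS in cDC2s, reported at -0.00066, was 0.0030 with DESeq2, 0.0029 with RLE size factors, 0.0067 with filterByExpr, 0.00029 with limma on deposited values, 0.0074 in the six-group fit and 0.096 with the gene length index. Cyld between cell types was 0.092 with limma on log2(count + 1) and 0.078 with WT medium alone.

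When a sample was left out, Ripk1 ranged from -0.11 to 0.051 for RIPK3 against WT in cDC2s, and its interaction from -0.13 to 0.024. Ripk3 for RIPK3 against BimS in cDC2s ranged from -0.036 to 0.29. Mlkl in cDC2s ranged from -0.072 to 0.96 for RIPK3 against WT and from -0.97 to 0.060 for RIPK3 against BimS, and its RIPK3 interaction from -0.47 to 0.56. The Fadd interaction for BimS ranged from -0.0026 to 0.20. Cflar for BimS against WT in cDC1s ranged from -0.016 to 0.027. Cyld in cDC1s ranged from -0.017 to 0.044 for BimS against WT, from -0.076 to 0.014 for RIPK3 against WT and from -0.084 to 0.0056 for RIPK3 against BimS, and in cDC2s from -0.091 to 0.068 for RIPK3 against BimS. With RIPK3 replicate 1 or 2 left out, cDC2s had 1 RIPK3 sample, which is assumed to vary like the other groups. Mlkl had the fewest reads of the 7 genes.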
